A study of Zea mays with 16 samples.

Results

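Anthers of 2 mm were compared between maize plants carrying *Mu killer* and *Mu* active plants on 4 Agilent arrays with 2 dyes, each of which held RNA of both lines. These 4 arrays gave 8 labeled samples of the 16 in the series, and the other 8 came from 1 mm anthers of the same design. All probes of the array other than control spots were members of the comparison, which makes 42034 maize probes with 39174 transcript identifiers. As the methods describe them, the *Mu killer* plants came from bronze kernels and were found by PCR to carry the *Mu killer* locus, and the *Mu* active plants came from spotted kernels of ears segregating for both. Both groups thus descend from crosses of a *Mu killer* stock with a high copy *MuDR/Mu* line that carries the *bz2-mu2* reporter allele, so neither group is free of *Mutator* elements. Each sample was total RNA of a small batch of dissected anthers, and the 4 replicates of a line were described as biological replicates. The labels do not say whether the 1 mm and 2 mm anthers of a replicate number came from the same plant. In the series description the silenced plants are called inactive rather than *Mu killer*, and the scan date precedes the growing season given in the methods, so the identity of the silenced line rests on the sample labels.

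*MuDR* is the autonomous element of the *Mutator* family of maize DNA transposons. Its genes *mudrA* and *mudrB* lie between terminal inverted repeats. The transposase that moves *Mu* elements is the product of *mudrA*, whereas the part played by *mudrB* is less clear. Promoters in the terminal repeats drive both genes, and the repeat beside *mudrA* is called TIRA. *Mu killer* is a rearranged derivative of *MuDR* that carries an inverted duplication of part of *mudrA*, and it acts as a dominant silencer of *MuDR*. Maize anthers of about 2 mm hold meiocytes in prophase I, surrounded by the tapetum, the nutritive cell layer, and further wall layers.

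The direction of every difference rests on which color held which line. In the sample labels, Cy3 and Cy5 samples that share an array also share a line. Here the Cy3 label was kept and the Cy5 sample was taken as the other line, which puts *Mu killer* in Cy3 for replicates 1 and 2, and in Cy5 for the other two. The drawing of the layout can be read both ways, and this direction is therefore likely but not settled. The opposite reading would exchange higher and lower throughout and leave all sizes unchanged.

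The spread of the ratios differed between the 4 arrays. Ratios are given as log2 of *Mu killer* over *Mu* active within an array, after background correction and loess normalization of each array, and 31679 probes that were on in both lines were used. A probe was on in a line when the scanner software marked it as well above background (2.6 SD) in each replicate. With 1 replicate unmarked, it counted as on only when brighter on average than the median probe of that kind. Between the lower and upper quartiles, the probes lay between -0.23 and 0.18 in replicate 1, between -0.19 and 0.19 in replicate 2, between -0.070 and 0.072 in replicate 3 and between -0.44 and 0.40 in replicate 4. Replicate 3 was the narrowest array and replicate 4 the widest. In replicate 4, 5135 probes (16.2%) were at least 2-fold apart, against 1947 (6.15%) in replicate 1, 1466 (4.63%) in replicate 2 and 1149 (3.63%) in replicate 3. The arrays also shared little of their pattern. Across probes, which are not independent replicates, the ratios of replicates 2 and 4 correlated at r = 0.30 and those of replicates 1 and 4 at r = 0.24, whereas the ratios of replicate 3 correlated with the other 3 arrays at r between -0.0021 and 0.059.

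**Figure D1:**
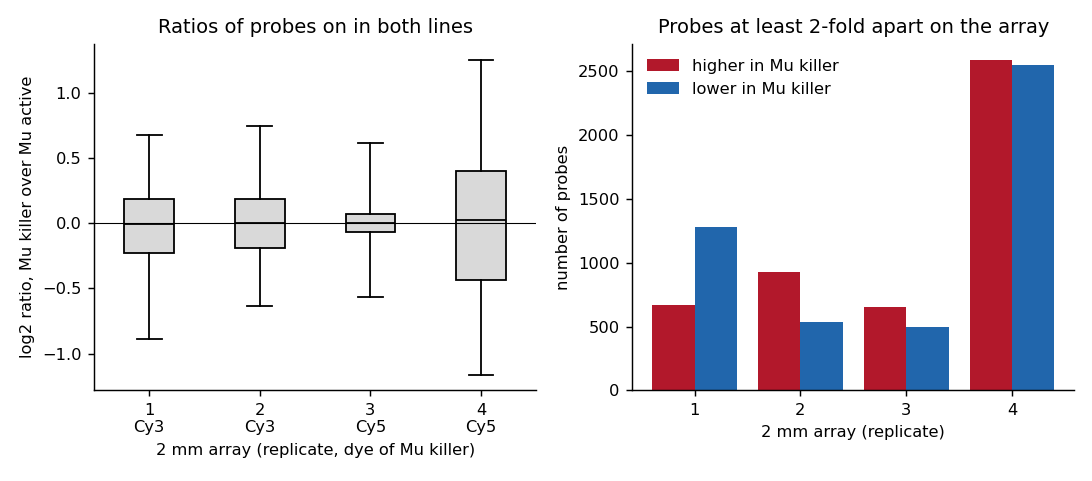
Left, log2 ratios of *Mu killer* over *Mu* active for the 31679 probes on in both lines on each 2 mm array, with the median (line), the quartiles (box) and the 5th and 95th percentiles (whiskers). Right, the number of probes at least 2-fold higher (red) or lower (blue) in *Mu killer* on that array. Replicate 3 has the narrowest box, and replicate 4 has 5135 probes past 2-fold in both directions together.

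The model that gave the ratios and errors below was fitted with limma to all 8 arrays. With all 2 mm arrays in, the 1 mm arrays entered each probe's spread and dye effect but not its 2 mm ratio. Leaving out a 2 mm array unbalanced the dyes, so the dye effect shared with 1 mm then entered the 2 mm ratio too. One of the 1 mm arrays stood apart. A set of 47 of the 31679 probes was at least 1.5-fold apart in the same direction on the other 7 arrays, 28 higher and 19 lower in *Mu killer*. On the 1 mm array labelled replicate 1, 26 of these 47 were at least 1.5-fold apart in the opposite direction. When any other array was set against its 7 companions, no such probe was found. Those sets held only between 13 and 17 probes, since the array that stood apart was then among the 7. On all 8 arrays 7 higher and 6 lower probes passed, so few could have been opposite. Without this array the fit below gave 1488 Up/Down probes, against 1478 with it, and the other results that turned on it are given both ways.

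Of the 31679 probes on in both lines, 1478 were Up/Down (4.67%), that is at least 1.5-fold apart with an unadjusted limma p under 0.05. Of these, 990 (3.13%) were higher and 488 (1.54%) lower in *Mu killer*. Without the limit on fold, 5215 probes had an unadjusted p under 0.05. The ratio had the same sign on all 4 arrays for 1153 of the 1478 probes, 772 higher and 381 lower in *Mu killer*. For comparison, 12.5% of all probes on in both lines were higher in *Mu killer* on all 4 arrays and 11% were lower on all 4. The call was made from these same ratios, so a larger share among the called probes is built in and is no support. The 2 mm medians and counts below were selected in the same way. The 4 arrays gave unequal parts of these calls. Turned to the direction of the call, the median log2 ratio of the Up/Down probes was 0.63 in replicate 1, 0.67 in replicate 2, 0.33 in replicate 3 and 1.43 in replicate 4. The average of replicates 1 and 2, with *Mu killer* in Cy3, was at least 1.5-fold in the direction of the call for 943 of the 1478 probes, and the average of replicates 3 and 4, with *Mu killer* in Cy5, for 1288. At 1 mm the same probes had turned medians of 0.28, 0.65 and 0.62 in replicates 2, 3 and 4 and of -0.24 in replicate 1, where 426 of 1478 had the sign of the 2 mm call.

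Single arrays and the scaling changed the number of Up/Down probes. Without replicate 3 there were 4627, and without replicate 4 there were 828, of which 488 were higher and 340 lower in *Mu killer*. The split between the directions was not stable. With 990 higher and 488 lower, 67.0% of the calls were higher in *Mu killer*, but a median shift of each array instead of loess left 270 higher and 1898 lower, or 12.5% higher. That shift put the median log2 ratio over the 31679 probes at -0.12, against -0.0047 with loess. With an offset of 0 in the background correction, 1899 were higher and 1599 lower (54.3% higher), and with the scanner log ratio 2479 and 2092 (54.2% higher).

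**Figure D2:**
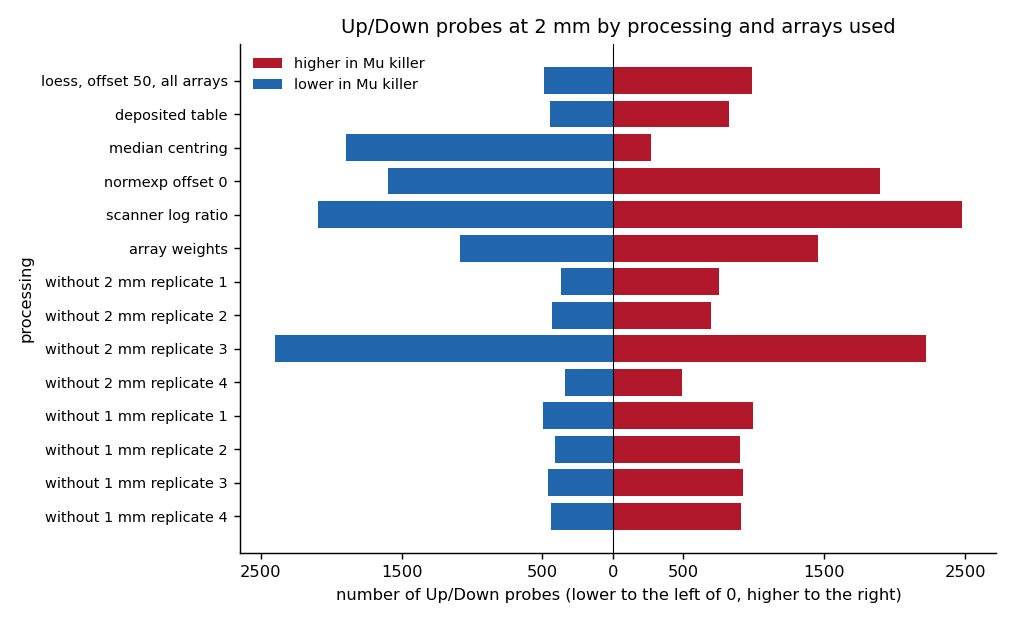
Number of Up/Down probes at 2 mm under each way of processing and with each array left out, with probes higher in *Mu killer* to the right of 0 (red) and those lower to the left (blue). The top bar holds 990 and 488 probes, and the longest bars are those with the scanner log ratio (2479 and 2092) and without 2 mm replicate 3 (2226 and 2401).

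The share of probes called rose with the signal level and was not highest in the brightest probes. The 31679 probes were divided into 5 equal parts by their mean log2 level over the 8 samples. From the dimmest to the brightest part, 0%, 0.505%, 5.05%, 11.0% and 6.79% were Up/Down. In the dimmest part the median absolute log2 ratio was 0.067, against 0.29 in the fourth, and the offset of the background correction draws the ratios of dim probes toward 0. By kind of identifier, 4.78% of the probes named TC, 2.63% of those named MAGI and 4.42% of the others were Up/Down, near the 4.67% over all probes except for the 190 MAGI probes, of which 5 were called.

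After Benjamini-Hochberg adjustment in limma, 3 probes were at least 1.5-fold apart with an adjusted p under 0.05 (0.00947% of those tested), all lower in *Mu killer*. Both probes for TC313692 were among them. The probe A_92_P012515 had processed signals of 136, 131, 735 and 855 in *Mu killer*, against 13355, 17356, 23392 and 15602 in *Mu* active, in the order of replicates 1 to 4. The groups did not overlap, and the 2 *Mu killer* samples in Cy5 were brighter than the 2 in Cy3. The share of all probes whose groups did not overlap is not given, here or below. Probes picked for large ratios tend to show such a gap, so it describes them and is no further support. The fit gave a log2 ratio of -4.47 with an SE of 0.154 (limma, adjusted p = 0.000891), and *Mu killer* was the lower sample on each of the 4 arrays. The probe A_92_P014505 had 102, 205, 108 and 171 in *Mu killer* and 11020, 8235, 10410 and 6861 in *Mu* active. The highest *Mu killer* sample was thus far below the lowest *Mu* active sample for this probe too, with a log2 ratio of -3.92 (SE 0.245, adjusted p = 0.0225 from limma). Both probes were well above background in all 8 samples, so TC313692 was detected in both lines. They were also the only 2 probes of the 31679 that were at least 2-fold apart in the same direction on all 8 arrays. The function of the transcript is not given by the array annotation.

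The third probe was A_92_P041280 for TC314797, with a smaller difference. Its processed signals were 18318, 17189, 21324 and 9599 in *Mu killer*, against 45870, 41067, 42030 and 17175 in *Mu* active. Both samples of replicate 4 were dimmer than the rest, so the groups overlapped by signal although *Mu killer* was lower on each array, by log2 ratios of -1.41, -1.24, -1.03 and -0.80. From the fit the log2 ratio was -1.12 with an SE of 0.0820 (limma, adjusted p = 0.0415). Over the 23 other ways of processing and sets of arrays, A_92_P012515 passed the adjusted threshold in 21 (adjusted p between 9.73e-05 and 0.135), A_92_P014505 in 15 (between 0.00227 and 0.335) and TC314797 in 4 (between 0.0183 and 0.599). None of these probes passed in fits of the 2 mm arrays alone. There A_92_P012515 had an adjusted p from limma of 0.0911 with a dye term and 0.135 without one. Leaving out 2 mm replicate 1, 2 or 4 ended the call for A_92_P014505 and for TC314797, as did leaving out 1 mm replicate 2, and for TC314797 also each of 1 mm replicates 1, 3 and 4. Without 2 mm replicate 3, in contrast, 3098 probes passed the adjusted threshold, 1620 higher and 1478 lower in *Mu killer*.

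**Figure D3:**
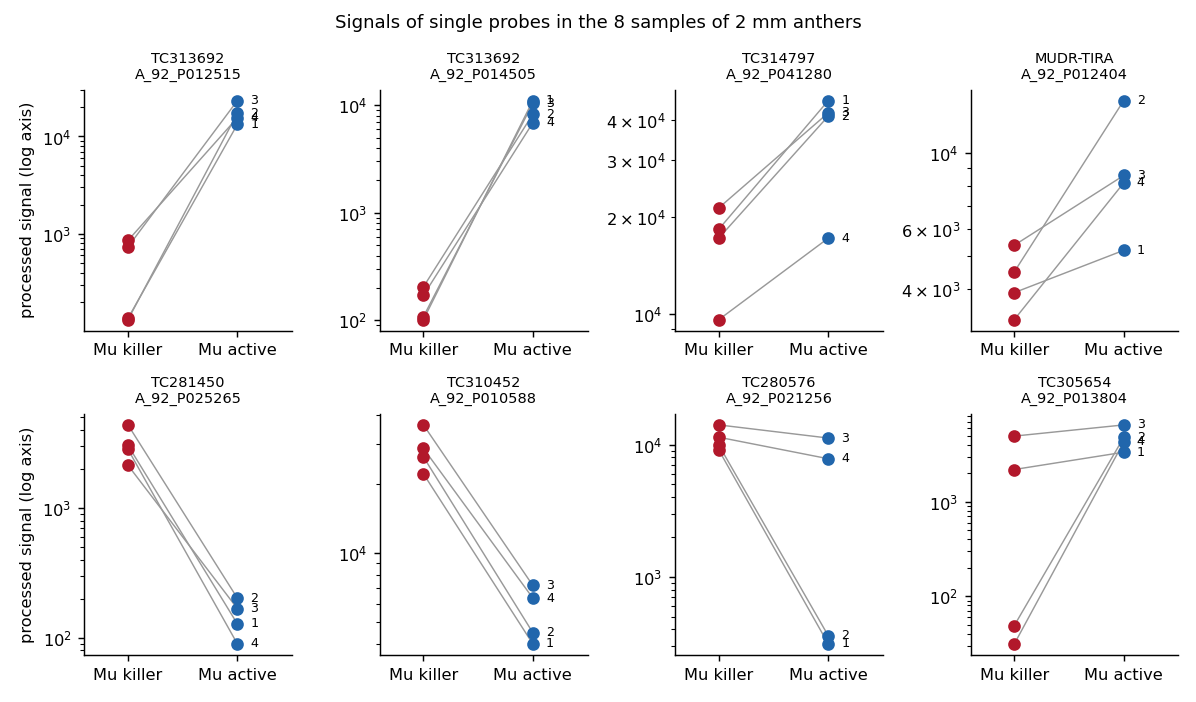
Processed signal, on log axes, of 8 probes in the 4 *Mu killer* samples (red, left) and the 4 *Mu* active samples (blue, right) of 2 mm anthers, with a line joining the samples of 1 array and the replicate number at its right end. The groups do not overlap for TC313692, TC281450 and TC310452, whereas TC280576 and TC305654 separate on 2 arrays only.

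Among the Up/Down probes with the same sign on all 4 arrays, those lowest in *Mu killer* after TC313692 were TC300191, TC312817, TC280479, TC295533, TC301908, TC283979, TC312030 and TC305654, with log2 ratios between -3.61 and -2.20. None of the 8 passed the adjusted threshold (adjusted p between 0.228 and 0.295 from limma). *Mu killer* was lower on every array by the choice of this set, which is no further support, but the sizes on single arrays varied. TC300191 (A_92_P015850) had 442, 475, 1363 and 1380 in *Mu killer*, against 12356, 11944, 17980 and 13989 in *Mu* active, and log2 ratios of -4.14, -4.09, -3.10 and -3.11. TC312817 (A_92_P003274) had 41.0, 50.4, 774 and 91.8 in *Mu killer* and 3167, 3890, 10628 and 5868 in *Mu* active. The groups did not overlap for either probe, both of which were picked for large ratios. *Mu killer* replicate 3 was the brightest of its group for TC312817. The array design names no gene for either identifier.

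Other transcripts in this set were far lower in some *Mu killer* samples only. TC305654 (A_92_P013804) had 2190, 49.0, 4940 and 31.3 in *Mu killer*, against 3337, 4782, 6487 and 4284 in *Mu* active. *Mu killer* replicates 2 and 4 were thus far below every other sample, whereas replicates 1 and 3 were close to *Mu* active, with log2 ratios of -0.30 and -0.36. TC301908 (A_92_P012353) had 937, 16.9, 11.9 and 29.6 in *Mu killer* and 1112, 2673, 4228 and 3732 in *Mu* active. Here replicate 1 stood apart with a log2 ratio of -0.083, against -3.32, -2.45 and -3.84 on the other arrays. TC295533 (A_92_P003395) had a similar high value in *Mu killer* replicate 1, 2478, against 69.8, 78.5 and 168 in replicates 2, 3 and 4, and *Mu* active samples between 2438 and 9644.

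The 10 Up/Down probes highest in *Mu killer* with the same sign on all 4 arrays were TC281450, TC309926, TC310452, TC305909, TC280576, TC292835, TC300381, DR801496, TC280205 and MAGI4_152705, with log2 ratios between 1.91 and 3.05. Their adjusted p values from limma lay between 0.224 and 0.299, so none passed. TC281450 (A_92_P025265) had 3038, 4372, 2134 and 2832 in *Mu killer*, against 128, 201, 167 and 89.5 in *Mu* active, and the lowest *Mu killer* sample was well above the highest *Mu* active sample. Its log2 ratios were 3.27, 3.53, 1.49 and 3.93, smallest in replicate 3. TC310452 (A_92_P010588) had 22205, 26344, 36370 and 28677 in *Mu killer* and 3993, 4473, 7200 and 6340 in *Mu* active. Its 4 log2 ratios were close together, between 2.15 and 2.61, and the groups did not overlap.

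TC280576 (A_92_P021256) differed between the *Mu* active samples instead. It had 9062, 9877, 14067 and 11352 in *Mu killer*, against 311, 358, 11192 and 7806 in *Mu* active. *Mu* active replicates 1 and 2 were low and replicates 3 and 4 were near the *Mu killer* level, which gave log2 ratios of 4.13, 4.23, 0.24 and 0.55. For MAGI4_152705 (A_92_P017728) the log2 ratios were 1.81, 1.68, 0.018 and 4.15, so replicate 4 gave the largest part of its mean of 1.91 and replicate 3 almost none. TC305909 (A_92_P001620) had 1737, 752, 2494 and 1841 in *Mu killer*, against 37.1, 32.8, 130 and 169 in *Mu* active, and the groups did not overlap.

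A count without a model was also made, chosen after the values of single arrays had been seen. On each of the 4 arrays, 68 probes were at least 2-fold apart in either direction. Of these, 27 (0.0852% of the probes on in both lines) had the same direction on all 4, 14 higher (0.0442%) and 13 lower (0.041%) in *Mu killer*, and 23 of the 27 were Up/Down. Another 10 were brighter in the same color on all 4 arrays, 15 had replicates 1 and 3 against replicates 2 and 4, and 2 had replicates 1 and 4 against replicates 2 and 3. Replicate 1 alone went against the other 3 for 5 probes, replicate 3 for 6, replicate 4 for 3 and replicate 2 for none. With the deposited table in place of the scanner output, 12 probes were higher and 13 lower on each array, and 21 of the 27 were among them. A median shift of each array instead of loess gave 7 higher and 23 lower, with 18 of the 27 among them.

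The 27 probes differed in what they showed at 1 mm. Both TC313692 probes were at least 2-fold lower in *Mu killer* on all 4 arrays of 1 mm. In 11 probes, 4 higher and 7 lower in *Mu killer* at 2 mm, the ratio was at least 2-fold in the same direction in 1 mm replicates 2, 3 and 4 and at least 2-fold in the opposite direction in 1 mm replicate 1. TC300191 was one of these, with 1 mm log2 ratios of -3.75, -3.77 and -3.45 in replicates 2, 3 and 4 and of 4.54 in replicate 1. CA398577 (A_92_P027734), at 3.24 the highest of the 27 and named outside the rule after its values were seen, had 4.37, 4.65 and 3.85 in replicates 2, 3 and 4 and -4.60 in replicate 1. Among the others, 6 had the same sign on all 4 arrays of 1 mm without reaching 2-fold on each, and 8 were mixed. Since the 1 mm arrays enter the error of each probe, the 11 probes had wide errors at 2 mm, such as an SE of 1.33 for TC300191.

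Leaving out the 1 mm array labelled replicate 1 changed these errors and not the ratios. Then 6 probes passed the adjusted threshold, the 2 of TC313692 and TC300191, TC283979 and TC312030 lower and TC310452 higher in *Mu killer*. The adjusted p from limma was 0.00530 for TC300191 and 0.00848 for TC310452, and over all 23 alternatives it ranged from 0.00227 to 0.703 and from 0.00848 to 0.685. Of the 27 probes, 2 passed with all arrays, 6 without this 1 mm array, 13 without 2 mm replicate 3 and 22 without both. The last of these sets of arrays was chosen after seeing the data.

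**Figure D4:**
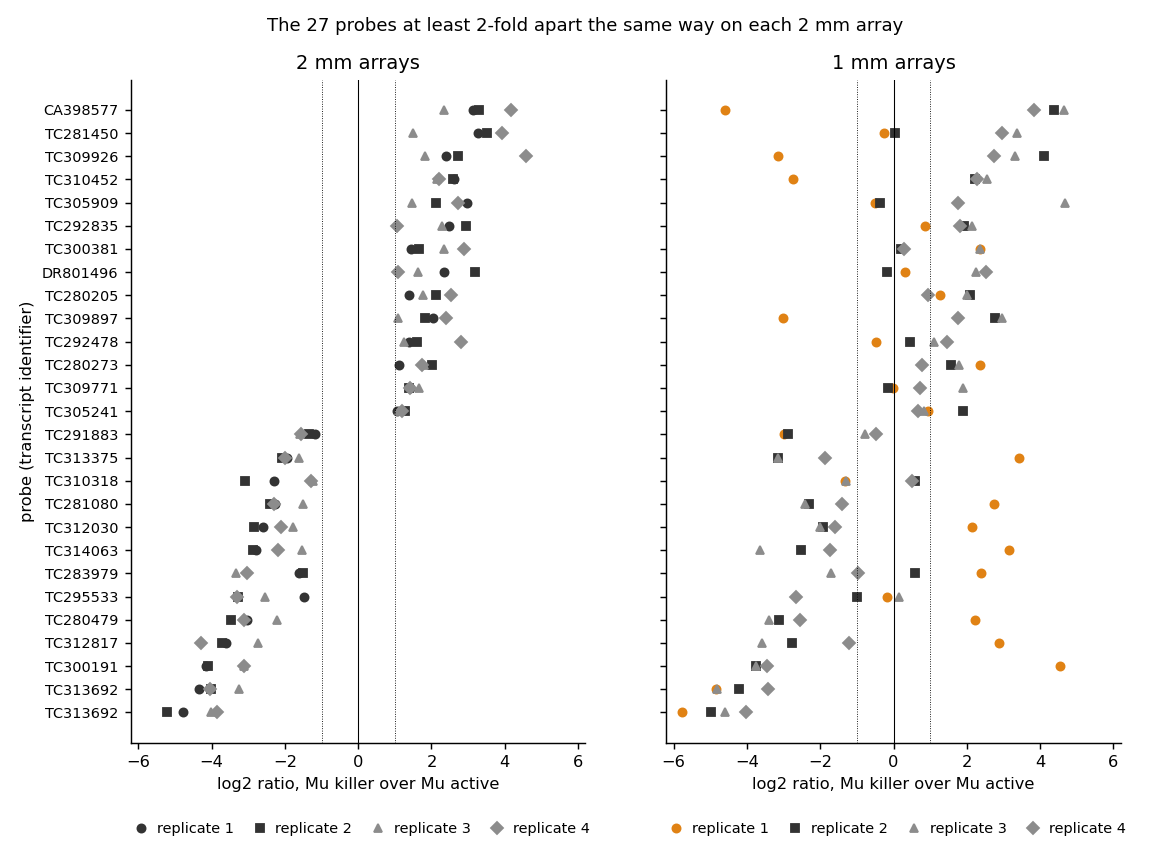
Log2 ratios of *Mu killer* over *Mu* active for the 27 probes at least 2-fold apart in the same direction on each 2 mm array (left), and of the same probes on the 1 mm arrays (right), with symbols for replicates and dotted lines at 2-fold. On the 1 mm array labelled replicate 1 (orange), 11 probes are at least 2-fold apart in the direction opposite to the other 7 arrays, and both TC313692 probes are not.

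Transcripts read by more than 1 probe gave a check on the probes alone. Probes of an identifier read the same labeled RNA on the same arrays, so their agreement does not show that a difference holds between plants. Of 1561 identifiers with at least 2 probes on in both lines, 131 had an Up/Down probe, 20 had 2 or more, and in none were probes called in opposite directions. For 19 identifiers every probe was called the same way, 13 higher and 6 lower in *Mu killer*. Among the 1476 identifiers with exactly 2 probes, the fitted ratios of the probes correlated at r = 0.39 across identifiers, and 58.1% of the 1561 had probes of 1 sign. Besides TC313692, the lower identifiers with the largest medians were TC287034, TC302701, TC310492 and TC287970, with median log2 ratios between -0.84 and -0.68. The higher ones were TC292478 at 1.46, TC309771 at 1.33, TC295167 at 1.31, TC297917 at 1.17 and TC281388 at 1.14.

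Signals separated the lines for some of these identifiers and overlapped for others. The probe A_92_P012099 for TC292478 had 142690, 307247, 183057 and 280567 in *Mu killer*, against 59271, 94835, 77451 and 39546 in *Mu* active, and no spot of the 2 mm samples was saturated. The groups did not overlap. For TC297917 the probe A_92_P013732 had 290113, 331268, 258172 and 468765 in *Mu killer* and 242064, 156705, 121399 and 93950 in *Mu* active, with log2 ratios of 0.38 in replicate 1 and 2.22 in replicate 4. TC309771 was higher on every array by both probes, at log2 ratios between 0.95 and 1.67, yet its signals overlapped, since A_92_P037335 had 830, 425, 4133 and 4854 in *Mu killer* and 127, 61.6, 798 and 1685 in *Mu* active. Replicates 3 and 4 were brighter than replicates 1 and 2 in both lines for this probe. None of these identifiers passed the adjusted threshold (adjusted p between 0.232 and 0.295 from limma).

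The array names 4 probes for *MuDR*, the target of *Mu killer*, all well above background in the 8 samples. The probe named for TIRA, the terminal repeat beside *mudrA*, had 3900, 4485, 5365 and 3252 in *Mu killer*, against 5185, 14213, 8584 and 8167 in *Mu* active. *Mu killer* was lower on each array, although its brightest sample exceeded *Mu* active replicate 1. The log2 ratios were -0.43, -1.51, -0.59 and -1.29, and the fitted ratio was -0.96 (SE 0.330, adjusted p = 0.295 from limma). With an unadjusted p of 0.024, MUDR-TIRA was an Up/Down probe, and under the 23 alternatives its ratio lay between -1.32 and -0.67 with an adjusted p between 0.0878 and 0.734. *Mu killer* itself holds TIRA and *mudrA* sequence, and whether the probes read its transcripts was not tested. The paper states that all maize lines also hold *hMuDR* elements, defective relatives of *MuDR* that are transcribed. Whether any *MuDR* probe read those was not tested either. It further states that *Mu* elements share terminal inverted repeats, and whether the TIRA probe read other *Mu* elements was not tested. For the plants on the arrays, the methods describe a PCR on genomic DNA and no test of *mudrA* transcripts.

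The probes for the coding regions were not lower in the fit. MUDRA (A_92_P031891), for the transposase gene, had 534, 421, 466 and 643 in *Mu killer* and 478, 399, 408 and 313 in *Mu* active, with a fitted log2 ratio of 0.20 (SE 0.109). MUDRA-21 (A_92_P019862), for the same gene, had 850, 698, 661 and 1028 in *Mu killer*, against 721, 703, 522 and 452 in *Mu* active. Its fitted ratio was 0.30 (SE 0.140), of which replicate 4 gave 0.99 and the other arrays between 0.0025 and 0.14. MUDRB (A_92_P034510) had 1126, 692, 684 and 1238 in *Mu killer* and 1138, 726, 669 and 709 in *Mu* active, with 0.11 (SE 0.158). The adjusted p from limma was between 0.328 and 0.708 for the 3 probes, none was Up/Down, and all 3 were higher in *Mu killer* by more than 1.5-fold in replicate 4 alone. Under median centering the ratios of the 3 probes turned to between -0.27 and -0.03, and without replicate 4 that of MUDRB was -0.046.

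Meiosis is under way at this stage, and the array names probes for AM1, cohesin subunits and shugoshin. AM1 (ameiotic1) is required in maize for cells to enter meiosis. RAD21, SMC1 and SMC3 are subunits of cohesin, the ring that holds sister chromatids together, and SGO1 (shugoshin) protects cohesin at centromeres in the first division. Of the 17 probes, 3 for AM1, 7 for ZmRAD21, 2 for ZmSMC1, 4 for ZmSMC3 and 1 for ZmSGO1, 15 were on in both lines. None of the 15 was Up/Down, and 1 was with the scanner log ratio. The background of 4.67% does not apply to them, since 7 lay in the dimmest of the 5 parts by level and 4 in the next, where 0% and 0.505% of all probes were called. Their log2 ratios lay between -0.31 and 0.16 with a median of -0.014, and their median absolute log2 ratio was 0.054, against 0.067 and 0.14 for all probes in the 2 dimmest parts. AM1 (A_92_P001166) had 310, 245, 233 and 196 in *Mu killer*, against 148, 338, 422 and 200 in *Mu* active, and the 2 groups overlapped. It was well above background in all 8 samples, and AM1 was the only meiocyte marker named on the array. No tapetum, green tissue or pollen marker was named, so the makeup of the samples was not checked, and fewer cells of a type cannot be told apart from less RNA per cell. The lowest of the list was ZmSMC1 (A_92_P041560) at -0.31 (SE 0.177), with -0.92 in replicate 4 and between -0.15 and -0.03 on the other arrays. For the probe with the highest ratio, ZmSMC3 (A_92_P034647), signals were 4278, 3609, 5260 and 4937 in *Mu killer* and 3430, 2948, 4457 and 5119 in *Mu* active.

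**Figure D5:**
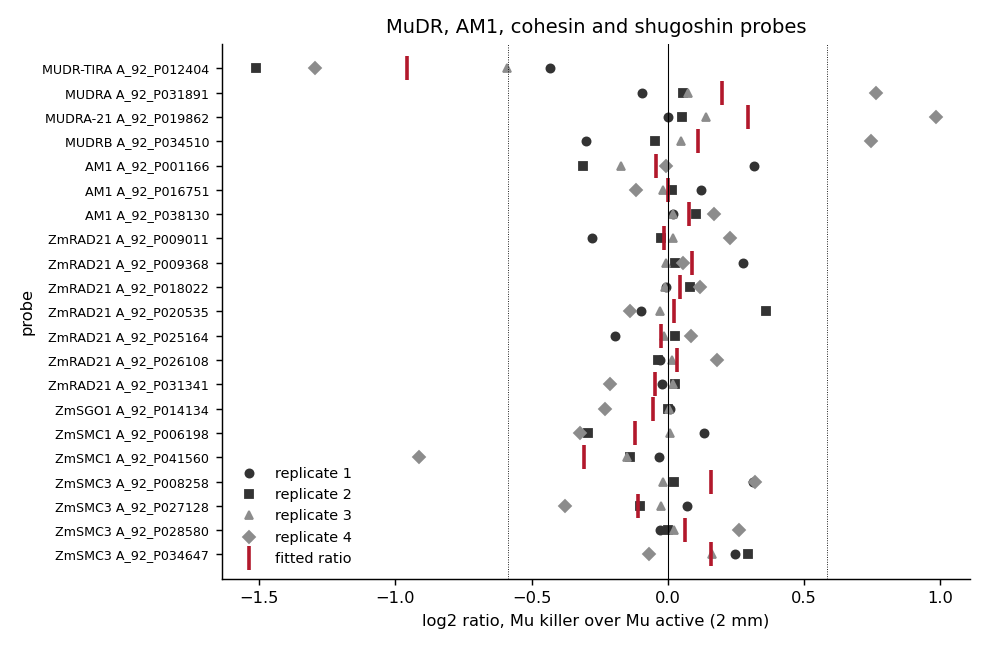
Log2 ratios of *Mu killer* over *Mu* active on each 2 mm array (symbols) and from the fit (red bar) for the 4 *MuDR* probes and the 17 probes for AM1, cohesin subunits and shugoshin, with dotted lines at 1.5-fold. MUDR-TIRA lies left of 0 on all 4 arrays, and replicate 4 (diamonds) sets the right end of the 3 coding probes.

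*Mu killer* had fewer probes well above background than *Mu* active on 3 of 4 arrays. The numbers were 33632, 34058, 34615 and 36488 in *Mu killer* and 36077, 35618, 35683 and 36474 in *Mu* active. The mean difference was -1265 ± 1025 (SD, n = 4 arrays; exact permutation test, two-sided p = 0.25), where 4 arrays cannot give a p under 0.125. Within an array, 782, 1046, 802 and 1468 probes were well above background in *Mu killer* alone, against 3227, 2606, 1870 and 1454 in *Mu* active alone. Replicate 4 was the only array on which the counts of both lines were nearly equal.

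By the on rule, 425 probes were on in *Mu killer* alone and 2161 in *Mu* active alone, which is 1.24% and 6.31% of the 34265 probes on in either line. Few of these were undetected in the other line. Of the 425, only 5 were well above background in no *Mu* active sample, while 35 were so in 1 sample, 175 in 2 and 210 in 3. Of the 2161, 65 were well above background in no *Mu killer* sample, 282 in 1, 906 in 2 and 908 in 3. Their median signals were low, 34.3 in *Mu killer* and 20.4 in *Mu* active for the 425 probes, and 22.1 in *Mu killer* and 30.1 in *Mu* active for the 2161.

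A stricter class was well above background in all 4 samples of a line and in no sample of the second line. It held 4 probes for *Mu killer* and 40 for *Mu* active. A bound was computed for the fold of such a probe. For it, each sample of the dim line was raised, where dimmer, to the lowest level that the scanner software marked as well above background in that sample. TC291145 (A_92_P003365) stood out, with 15.8, 17.6, 12.6 and 10.1 in *Mu killer*, not well above background, against 727, 272, 869 and 876 in *Mu* active. Its bound was 2.78-fold, lower in *Mu killer* (log2 SE 0.62), and it was the only probe of the 44 with a bound over 2-fold. For 41 of the 44 probes, all those named here included, the dim samples already lay above that lowest level. The bound was then the measured ratio itself, which the offset of 50 draws toward 0. It carries the error of that ratio and is not a floor. For TC296662 (A_92_P023985), *Mu* active replicates 1 and 2 had 490 and 629, and replicates 3 and 4 had 18.9 and 9.56. All 4 *Mu killer* samples lay between 7.09 and 16.6. The bound for TC296662 was 1.78-fold, lower in *Mu killer* (log2 SE 0.51), with log2 ratios of -1.43, -1.82, -0.016 and -0.074. The bounds for AW400172 and TC304159 were 1.41-fold (log2 SE 0.40) and 1.21-fold (log2 SE 0.13), lower in *Mu killer*. In replicate 3 the log2 ratio of TC304159 was 0.00023. Of the 4 probes higher in *Mu killer*, TC301804 had a bound of 1.39-fold (log2 SE 0.21). Its signals were 110, 39.3, 197 and 57.9 in *Mu killer* and between 7.66 and 13.3 in *Mu* active. The others were TC280635 at 1.14-fold, CD941855 at 1.05-fold and DT948356 at 1.04-fold. Their log2 ratios of 0.19, 0.075 and 0.063 had SEs of 0.28, 0.14 and 0.060.

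Whether the difference between the lines changed from 1 mm to 2 mm was tested for 30638 probes on in both lines at both stages. No probe passed after adjustment in limma (smallest adjusted p = 0.9996), and 786 had an unadjusted p under 0.05. Without 2 mm replicate 3, 4319 had an unadjusted p under 0.05, and without 1 mm replicate 1 it was 620. In neither case did any probe pass after adjustment. Among the 1473 of these probes that were Up/Down at 2 mm, 154 had an unadjusted p under 0.05 for the change, so a call at 2 mm alone does not show that a difference is particular to 2 mm.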

How the data were processed

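The authors deposited Agilent Feature Extraction 9.5.3.1 output with the intensity of each spot in each color, and log10 ratios computed by that software. Its flags and processed signals, background-subtracted and dye-normalized by the authors' software, were also used. A deposited table of normalized intensities served as an alternative. Its log ratios matched the scanner arrays of a stage in mirrored order and the other color (r between 0.952 and 0.992 across probes), so the order of the replicate numbers is uncertain but the direction between the lines is the same. In limma 3.58.1 with R 4.3.3, background correction used normexp (offset 50) and normalization loess, array by array. Between 3 and 12 outlier spots per 2 mm array were left out. The model held a coefficient per stage and a dye term, with empirical Bayes moderation over 42034 probes. The array, which pairs the lines, was the block. The fit was tested on simulated data with independent errors of the same spread on every array. The real arrays differ in spread, which that test did not cover. Up/Down calls used the thresholds of the methods, which name no test. All 4 arrays of a stage shared a slide. The number of arrays limits the precision. Gene names came from the array design. In the reference table, 4 probes matched a symbol or synonym and 0 an accession, so most identifiers and the planned silencing, stress, pigment, carbohydrate and cell type lists could not be named. Named probes were all *MuDR* probes, all past the adjusted threshold, the 10 largest per direction, the 4 largest bounds per direction, up to 5 identifiers per direction with every probe called, and the meiosis list. Members and lists were chosen with earlier results of these data known.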

Additional observations from a re-analysis of the deposited data

Results flagged for a closer look

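In 3 probes, 1 array of the 2 mm set lay far from the other 3, by a test of its gap to the nearest array over the range of all 4. Among the sets tested it was replicate 4 each time, in which the ratios were widest. The values there were 0.99 for MUDRA-21, -0.23 for ZmSGO1 and -0.92 for ZmSMC1 (A_92_P041560), with all other arrays between 0.0025 and 0.14, between 0.0022 and 0.0096, and between -0.15 and -0.03. In 44 sets of 4 values tested, which did not hold every probe named above, chance flags about 1 in 20.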

How the results depend on the processing

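With 1478 Up/Down probes (990 higher and 488 lower in *Mu killer*) and 3 past the adjusted threshold, a background offset of 0 gave 3498 (1899 higher, 1599 lower), and the scanner log ratio gave 4571 (2479 higher, 2092 lower) with 1 past the adjusted threshold. Median centering gave 270 higher and 1898 lower. The 2 mm arrays alone gave 0 past the adjusted threshold in limma with a dye term (657 higher, 2699 at an unadjusted p under 0.05) and without one (3382 at that p). Array weights gave 2540, of which 1083 were lower, and 1 past the adjusted threshold. Leaving out 1 array gave between 828 and 4627 Up/Down probes, between 488 and 2226 higher, between 340 and 2401 lower, and between 1 and 3098 past the adjusted threshold, the highest without 2 mm replicate 3. Without that array and 1 mm replicate 1, a choice added after seeing the data, there were 4383 (2144 higher, 2239 lower) and 2454 past the adjusted threshold. Probes on in *Mu killer* alone numbered 425, against 874 with a limit of 5 SD and between 552 and 798 with 1 array left out. Where off required no replicate well above background, 5 were on in *Mu killer* alone and 65 in *Mu* active alone. The 27 probes at least 2-fold apart on each array became 103 with the scanner log ratio and between 41 and 94 with 1 array left out, as fewer arrays had to pass. Under median centering the log2 ratios turned to -0.034 for MUDRA-21, -0.058 for MUDRA and -0.27 for MUDRB, and that of MUDRB lay between -0.046 and 0.23 with 1 array left out. The cause of these shifts was not tested.

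Each array pairs the lines, and a fit of single samples with no replicate block for the array gave 1049 Up/Down probes with 5 past the adjusted threshold. Same-numbered arrays of both stages did not deviate together in every pair (r between -0.27 and 0.33), so the numbers were not taken as pairs. With the replicate block, 0 probes changed between stages after adjustment in limma and 839 had an unadjusted p under 0.05. With each 1 mm array left out, added after seeing the data, 0 passed and between 620 and 983 had such an unadjusted p. For 25 single probes under up to 23 alternatives, 512 values kept direction and side of the threshold, 28 gained the call, 29 lost it and 4 reversed. Dim probes and the number of arrays limit what could be detected.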
